A study of Mus musculus with 15 samples.

Results

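The 5 libraries whose sample titles end in the number 3 were set against the 10 libraries whose titles end in 1 or 2, out of 15 libraries of mouse hematopoietic progenitors. Each of 5 groups holds 1 library of each number, so every comparison was made inside groups. The libraries were chosen by their expression levels across all genes, which in earlier results of these data had set those numbered 3 apart. The differences between libraries 3 and the others are therefore a description, and no p-value is given for them.

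The cells were fetal liver progenitors immortalized with Hoxb8, a homeobox transcription factor that blocks myeloid maturation, and grown in medium with β-estradiol. All were exposed to retrovirus for 2 days and sorted for GFP. In 4 groups the cells were heterozygous for a knockout of Ddx41 (hi-Ddx41+/-), which encodes a DEAD-box RNA helicase, and the virus carried nothing (the group called Het empty), DDX41 in its wild-type form (Het DDX41), or the mutants G173R (Het G173R) and R525H (Het R525H). In the other group the cells were wild type (hi-Ddx41+/+) and received empty vector (WT empty). Each genotype is described as 1 immortalized line, and the sources do not say whether the 3 libraries of a group were separate cultures, so the spread between them may be technical. What the number 3 stands for (a day, a passage, a sort or a sequencing run) is not stated, and any such difference cannot be told apart from the number. In 12 of the files, all of heterozygous groups, the name carries another group code than the sample title, and the titles were followed. The number at the end agrees in all 15.

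Cultured progenitors adjust several gene programs to their surroundings. When oxygen is scarce, the transcription factor HIF escapes hydroxylation and destruction and raises genes of glucose uptake and glycolysis. Low sterol in the endoplasmic reticulum releases SREBP, which raises cholesterol and fatty acid synthesis, and lack of amino acids activates the kinase GCN2 and the transcription factor ATF4. Growth factors and MYC drive ribosome production and the cell cycle, and in myeloid progenitors released from Hoxb8 the granule proteins of neutrophils appear in stages, the primary granule proteins first.

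Total expected counts ran from 22104066 to 37109795 in libraries 3 and from 27743681 to 49145873 in libraries 1 and 2. Their means were 3.247e7 in libraries 3 and 3.666e7 in the others, a difference that an exact two-sided permutation test within groups did not separate (p = 0.169, the smallest possible p being 0.004115 over 243 arrangements). The fragment length read from the effective gene lengths was 257.9 ± 9.08 bases in libraries 3 and 255.8 ± 7.65 bases in the others (SD, n = 5 and 10; p = 0.70 in the same exact test). Genes with a count numbered 17886 to 19538 and mitochondrial genes took 2.158 to 2.987% of counts over all libraries.

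After the mean of each group was removed, the first principal component of log2 CPM held 42.6% of the variance. Libraries 3 scored 22.0 in Het empty, 43.2 in Het DDX41, 52.1 in Het G173R, 42.2 in Het R525H and 21.9 in WT empty, above all 10 other libraries, which lay between -34.4 and 3.89. The second component held 15.5% and set library 1 of Het empty (36.7) and of WT empty (34.1) apart from the rest, which lay between -26.3 and 12. The distance between libraries 3 and the others on the first component was smaller in both empty-vector groups than in the 3 groups with a DDX41 vector.

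**Figure D1:**
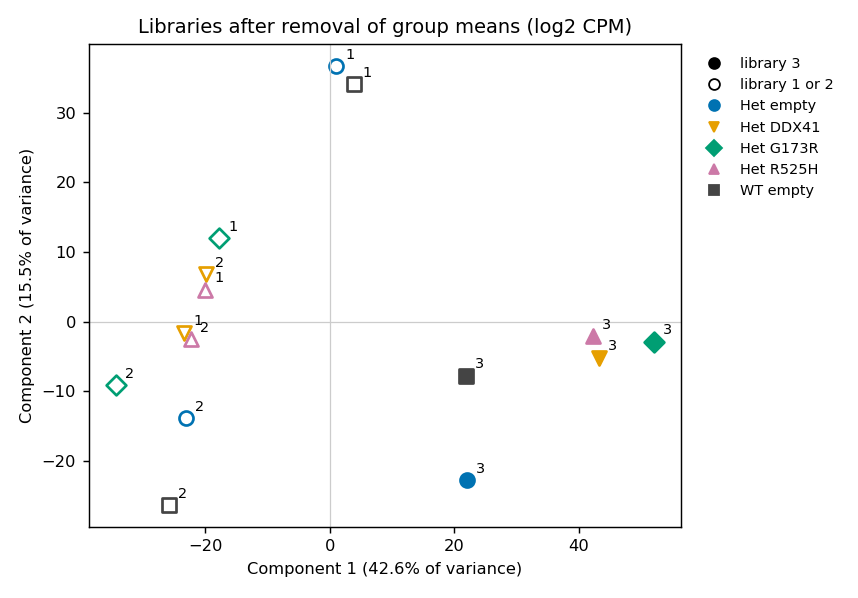
Scores of the 15 libraries on the first 2 principal components of log2 CPM after removal of group means, with filled symbols for libraries 3, open symbols for libraries 1 and 2, and a shape and colour for each group. Libraries 3 lie at 21.9 to 52.1 on the horizontal axis and the others at -34.4 to 3.89.

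Across the transcriptome 2873 genes were higher in libraries 3 (19.7% of 14548 genes tested) and 3562 were lower (24.5%), by edgeR's quasi-likelihood fit with group as a block and an adjusted p under 0.05, the criterion for "called", "rose" and "fell" below. Together these are 44.2% of genes tested. The shares of 19.7% higher and 24.5% lower are the background for every list count below. Most differences were small: the median size among called genes was 0.30 on the log2 scale (quartiles 0.20 and 0.53), and with a difference of at least 1 on that scale 576 genes were higher and 114 lower. The median over all genes tested was -0.01. Because RNA was pooled over the sorted cells of each library, fewer cells of a type and less of an RNA per cell cannot be told apart in any result here. The count of lower genes dropped to 2106 without libraries 2 and to 2126 without Het DDX41 3. Without library 1 of both empty-vector groups, 3715 genes were higher and 3941 lower.

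**Figure D2:**
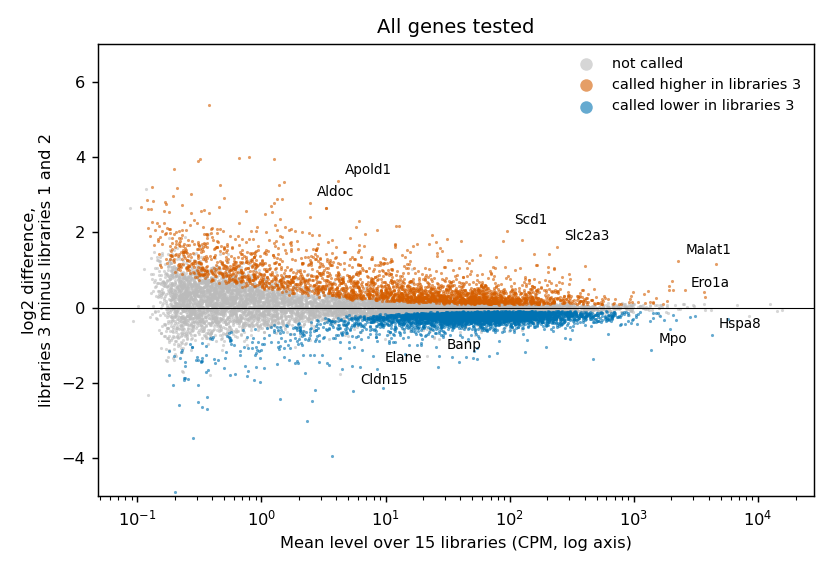
Log2 difference of libraries 3 minus libraries 1 and 2 (vertical axis) against the mean level over 15 libraries in CPM (log horizontal axis) for 14548 genes, with the 2873 called higher in orange and the 3562 called lower in blue. Large differences are mostly rises, with Apold1 at 3.36 and Scd1 at 2.04, while Mpo (-1.12) and Hspa8 (-0.72) are abundant genes that fell.

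Without a model, library 3 lay above both other libraries of its own group in all 5 groups for 1768 genes (12.2%) and below both for 2173 genes (14.9%). Such genes are called ordered below. Of these 1723 were also called higher (11.8%) and 2124 called lower (14.6%). Of the called genes, 84.2% had a difference of the same sign in all 5 groups, a share that the call itself favours, since it was made over the groups together. Among all genes tested, called or not, the share was 44.2%. The size differed: the median absolute difference of called genes was 0.20 in Het empty, 0.36 in Het DDX41, 0.42 in Het G173R, 0.31 in Het R525H and 0.18 in WT empty.

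Hypoxia-responsive genes outside glycolysis formed one of the clearest groups of rises. Of 26 members tested (27 are in the files), 20 rose, none fell and 18 were ordered, with a median of 0.64 beside -0.01 over all genes. A promoter from this list (Egln3) and one from glycolysis (Aldoc) are printed because they hold the core letters bound by HIF. The windows run from 250 bases before to 50 bases after the start of the gene (RefSeq, GRCm38.p6), and capitals mark ACGTG or GCGTG on either strand.

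Egln3, chr12:54203825-54204124, minus strand: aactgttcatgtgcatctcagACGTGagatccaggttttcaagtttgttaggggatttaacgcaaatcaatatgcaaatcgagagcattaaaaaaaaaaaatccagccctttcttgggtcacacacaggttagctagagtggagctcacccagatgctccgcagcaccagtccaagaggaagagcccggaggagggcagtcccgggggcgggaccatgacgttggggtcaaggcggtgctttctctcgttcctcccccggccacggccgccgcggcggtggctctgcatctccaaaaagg
Aldoc, chr11:78322823-78323122, plus strand: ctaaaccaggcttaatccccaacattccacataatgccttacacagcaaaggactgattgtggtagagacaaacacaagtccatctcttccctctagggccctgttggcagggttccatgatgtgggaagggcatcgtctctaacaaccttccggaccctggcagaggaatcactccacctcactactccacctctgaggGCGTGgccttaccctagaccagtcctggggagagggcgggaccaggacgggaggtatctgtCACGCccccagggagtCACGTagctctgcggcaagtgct

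Egln3 holds 1 match, at position -229 from the start, and the Aldoc window, 1 of 2 listed for that gene, holds 3, the first at position -50. The letters were found in a promoter window of 46.7% of 27025 genes and of 38 of the 44 hypoxia and glycolysis members with a window (86.4%). Of the 36 members called higher with a window, 31 held them. The 27025 genes include genes that were not tested here, so these shares are of unlike sets. The same holds for the sterol and amino acid motifs below. Whether the letters went with the rise was not tested. CACGTG holds the ACGTG core on both strands, so the 2 strands are not separate evidence, and a match does not show binding.

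Egln3, a prolyl hydroxylase that marks HIF for destruction and is itself a HIF target, is given first. Its level was 333, 413, 461, 363 and 286 CPM in libraries 3 of Het empty, Het DDX41, Het G173R, Het R525H and WT empty, an order kept below, against 150 to 251 CPM (median 219) in libraries 1 and 2. No library 3 overlapped any other library, and the difference was 0.81 on the log2 scale (SE 0.06). Such separation is favoured by the choice of genes, which were mostly named for the largest F or difference in this same fit. Its share over all genes was not counted, here or below. Ero1a, an oxidase that forms disulfide bonds in the endoplasmic reticulum, is one of the most abundant mRNAs of these cells. It reached 5610, 9360, 8900, 8190 and 4570 CPM in libraries 3, against 2410 to 3810 CPM (median 3280) in libraries 1 and 2 (log2 1.16, SE 0.10). Here too the ranges did not overlap, and the libraries 3 with empty vector were the lowest of the 5.

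Bhlhe40, a transcriptional repressor induced by low oxygen, was 63.6, 81.5, 102, 76.7 and 63.7 CPM in libraries 3 and 16.5 to 27.1 CPM (median 22.6) in libraries 1 and 2 (log2 1.78, SE 0.10). Ddit4, an inhibitor of the growth kinase mTORC1, was 35.9, 41.0, 63.5, 58.7 and 36.4 CPM in libraries 3, against 7.87 to 22.3 CPM (median 14.2) in libraries 1 and 2 (log2 1.74, SE 0.15). Neither gene overlapped between the 2 sets of libraries. Of the other members, the mitophagy receptors Bnip3 and Bnip3l rose by 1.03 and 0.77, Ndrg1 by 1.27, the glycogen branching enzyme Gbe1 by 1.17 and the angiogenic factor Vegfa by 0.68. Car9, a carbonic anhydrase often used as a hypoxia marker, averaged 6.29 CPM in libraries 3 and 5.69 CPM in libraries 1 and 2 and was not called, as were Car12, Mxi1, Mif, Narf and Ppfia4. Adm, the peptide adrenomedullin, rose by 3.68 but stayed under 1 CPM (mean 0.52 and 0.04 CPM).

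Glycolysis moved together from glucose entry to lactate export, with 21 of 23 members higher, 1 lower and 20 ordered, 19 of them upward (median 0.46). Slc2a3, the high-affinity glucose transporter GLUT3, was 306, 524, 538, 528 and 280 CPM in libraries 3, against 110 to 163 CPM (median 143) in libraries 1 and 2 (log2 1.6, SE 0.11). Libraries 3 of the 3 DDX41 vector groups lay well above those of both empty-vector groups, and all 5 were above every other library. Pfkl, the liver-type phosphofructokinase, was 409, 412, 433, 377 and 338 CPM in libraries 3 and 217 to 292 CPM (median 251) in the others (log2 0.64, SE 0.07), again with no overlap. Pgk1, which makes ATP in the lower part of the pathway, was 2460, 3140, 3240, 3050 and 1860 CPM in libraries 3 and 1160 to 1960 CPM (median 1710) in libraries 1 and 2 (log2 0.72, SE 0.07). Its WT empty library 3 lay inside the range of the others, while above both other WT empty libraries.

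Aldoc, the brain-type aldolase, gave one of the largest rises of the pathway at a low level, 4.59, 6.88, 7.52, 4.90 and 4.59 CPM in libraries 3 and 0.51 to 1.27 CPM (median 0.82) in the others (log2 2.78, SE 0.17). Abundant enzymes rose less: Gapdh by 0.42, Aldoa by 0.48, Pkm by 0.48, Ldha by 0.48 and Eno1 by 0.28, and the lactate exporter Slc16a3 by 0.79. Pfkfb3, which makes an activator of phosphofructokinase, was the 1 member that fell (log2 -0.30), and Slc16a1, a lactate carrier, was at 208 and 222 CPM and was not called. The tricarboxylic acid cycle lay the other way, with 10 of 15 enzymes lower and none higher (median -0.14): Idh3a, a subunit of isocitrate dehydrogenase, fell by 0.30 and Ogdh, of oxoglutarate dehydrogenase, by 0.27. Of 23 nuclear-encoded respiratory chain genes 11 fell and none rose (median -0.11), with Cyc1, cytochrome c1, at -0.39.

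**Figure D3:**
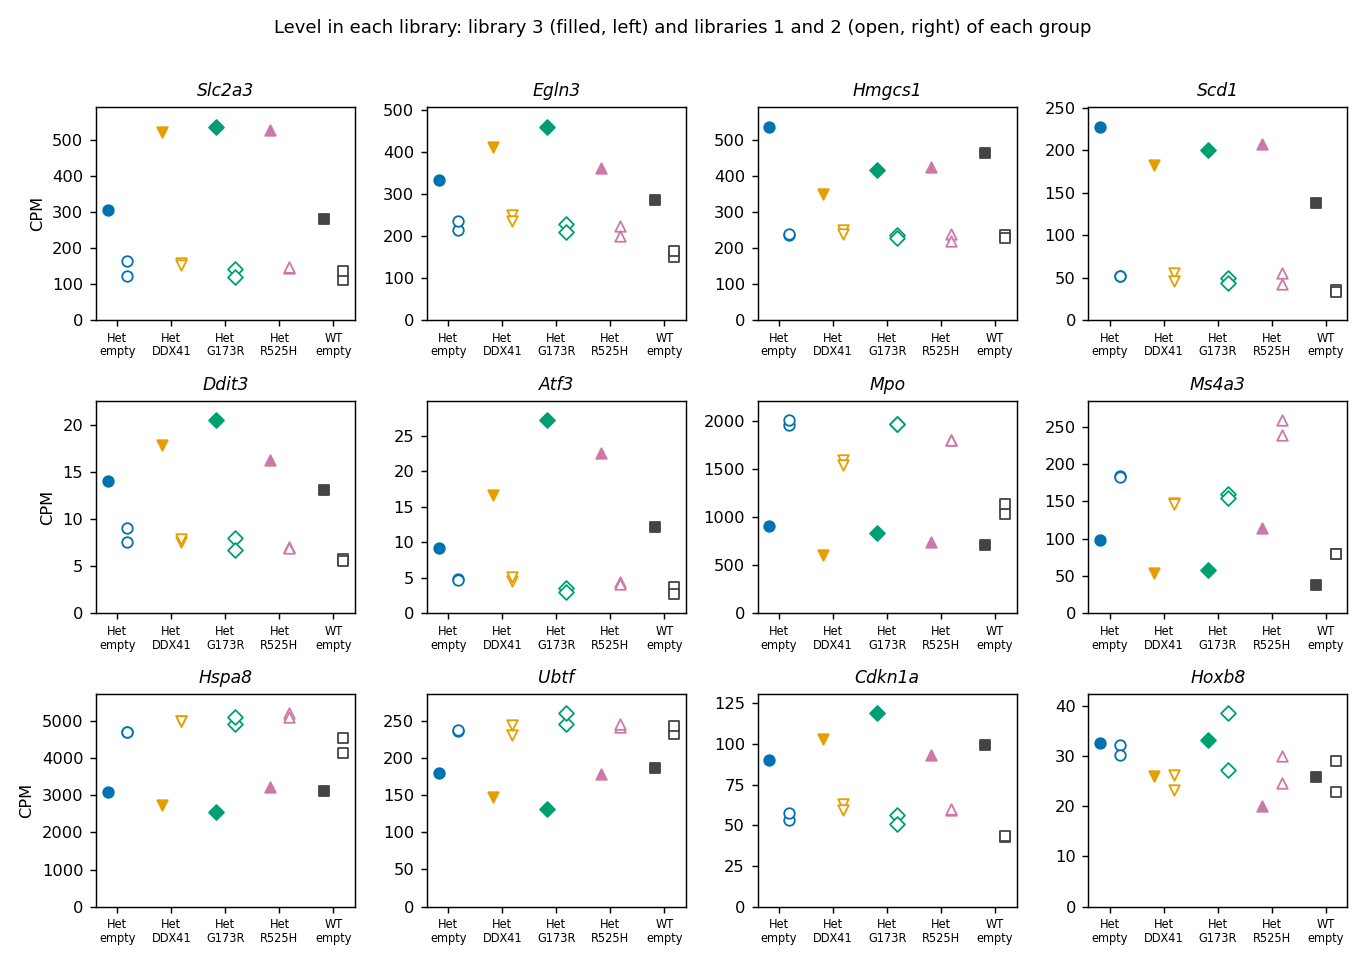
Level in CPM of 12 genes in each library, with library 3 of each group filled at the left and libraries 1 and 2 open at the right. Library 3 is the highest of its group for Slc2a3, Egln3, Hmgcs1, Scd1, Ddit3, Atf3 and Cdkn1a and the lowest for Mpo, Ms4a3, Hspa8 and Ubtf, while Hoxb8 is mixed (mean 27.5 CPM in libraries 3 and 28.4 CPM in the others).

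Cholesterol synthesis rose along nearly the whole pathway, with 21 of 24 genes higher, 2 lower and 20 ordered upward (median 0.62). The Hmgcs1 promoter is the 1 of 16 member windows with the sterol element searched (TCACNCCAC, both strands, in 1.44% of all genes), and it is shown with the match in capitals at position -137.

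Hmgcs1, chr13:119690101-119690400, plus strand: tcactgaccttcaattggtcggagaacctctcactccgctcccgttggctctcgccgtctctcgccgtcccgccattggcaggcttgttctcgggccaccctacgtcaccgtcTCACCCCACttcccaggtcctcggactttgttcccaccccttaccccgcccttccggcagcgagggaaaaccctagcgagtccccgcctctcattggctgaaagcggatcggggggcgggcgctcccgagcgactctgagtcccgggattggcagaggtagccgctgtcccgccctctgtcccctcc

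Hmgcs1, the enzyme that forms HMG-CoA ahead of the statin-sensitive step, was 536, 350, 415, 425 and 462 CPM in libraries 3, against 219 to 249 CPM (median 237) in libraries 1 and 2 (log2 0.89, SE 0.06). Libraries 1 and 2 were close to one another in every group, and no library 3 came near them. Lss, which closes the sterol ring, was 190, 137, 154, 167 and 168 CPM in libraries 3 and 72.3 to 91.6 CPM (median 83.2) in the others (log2 0.99, SE 0.06). Pmvk, phosphomevalonate kinase, was 79.9, 66.2, 72.6, 78.6 and 64.2 CPM in libraries 3 and 30.3 to 43.0 CPM (median 36.8) in the others (log2 0.97, SE 0.05). Fdps, which makes farnesyl diphosphate, rose by 0.69 (SE 0.05), also without overlap. In this pathway the group medians were highest in both empty-vector groups (0.83 in Het empty and 0.68 in WT empty) and lowest in Het DDX41 (0.38), with 0.55 in Het G173R and 0.49 in Het R525H. Ebp, a late enzyme of the pathway, fell by 0.14, and the regulator Insig1 rose by 0.79.

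Fatty acid synthesis was divided, with 11 of 19 members higher, 3 lower and a median of 0.25. The desaturases led: Scd1 was 228, 183, 201, 207 and 138 CPM in libraries 3, against 32.6 to 55.9 CPM (median 47.5) in libraries 1 and 2 (log2 2.04, SE 0.06), about the same in every group (1.84 to 2.12). Scd2 was 2610, 2260, 2440, 2690 and 2250 CPM in libraries 3 and 1300 to 1780 CPM (median 1690) in the others (log2 0.58, SE 0.04). Acss2, which makes acetyl-CoA from acetate, rose by 1.69 (SE 0.10). In contrast the core enzymes Acaca (acetyl-CoA carboxylase, -0.15) and Fasn (fatty acid synthase, -0.11, not called) were not higher. Of 16 fatty acid oxidation genes 4 rose and 2 fell (median -0.01), beside 19.7% and 24.5% of all genes tested.

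Among 10 lipid droplet genes 5 rose and 2 fell. Lpin1, a phosphatidate phosphatase, was 16.9, 21.3, 26.4, 23.2 and 19.9 CPM in libraries 3 and 4.84 to 8.05 CPM (median 7.31) in the others (log2 1.62, SE 0.11). Dgat2, the acyltransferase for the last step of triglyceride synthesis, moved the opposite way, at 43.2, 39.3, 42.0, 61.9 and 26.6 CPM in libraries 3, against 57.6 to 138 CPM (median 96.3) in libraries 1 and 2 (log2 -1.20, SE 0.04). Its fall was nearly equal in the 5 groups (-1.26 to -1.14), and the ranges overlapped only across groups, since library 3 was lowest in each. Hilpda, a droplet protein induced by low oxygen, rose by 0.71 in the fit and by only 0.04 in Het empty. Abca1, the cholesterol exporter driven by LXR, rose by 0.98, while of 5 LXR targets tested only 2 rose and 0 fell (median 0.08).

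Genes of the amino acid response, targets of ATF4, rose in 20 of 27 tests with no fall and 18 ordered (median 0.42). The 2 promoters named for this list are shown with TGATGNAA, the joint letters of C/EBP and ATF4, in capitals on either strand.

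Slc7a11, chr3:50443564-50443863, minus strand: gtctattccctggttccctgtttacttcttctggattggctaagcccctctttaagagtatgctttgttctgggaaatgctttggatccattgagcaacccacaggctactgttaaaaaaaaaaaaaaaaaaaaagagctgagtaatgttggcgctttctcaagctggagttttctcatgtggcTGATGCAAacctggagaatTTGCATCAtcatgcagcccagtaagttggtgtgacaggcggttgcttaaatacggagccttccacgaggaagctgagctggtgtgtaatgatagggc
Pycr1, chr11:120643699-120643998, minus strand: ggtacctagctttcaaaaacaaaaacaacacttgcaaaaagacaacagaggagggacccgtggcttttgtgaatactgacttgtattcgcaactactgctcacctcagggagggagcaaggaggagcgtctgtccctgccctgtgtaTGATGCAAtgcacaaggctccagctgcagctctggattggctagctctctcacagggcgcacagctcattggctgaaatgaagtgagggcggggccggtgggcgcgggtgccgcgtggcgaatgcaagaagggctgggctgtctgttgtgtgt

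Slc7a11 holds 2 matches facing each other, the first at position -66, and Pycr1 holds 1 at -103; 4.51% of all genes and 7 of 25 members with a window (28%) hold the letters. Slc7a11, the cystine importer, was 179, 197, 168, 249 and 152 CPM in libraries 3, against 87.3 to 154 CPM (median 119) in libraries 1 and 2 (log2 0.67, SE 0.03), overlapping only through the low WT empty library 3. Pycr1, of proline synthesis, was 9.43, 11.1, 11.9, 9.62 and 6.26 CPM in libraries 3 and 2.67 to 5.63 CPM (median 4.61) in the others (log2 1.13, SE 0.08). Ddit3, the transcription factor CHOP, was 14, 17.8, 20.5, 16.3 and 13.1 CPM in libraries 3 and 5.54 to 9.08 CPM (median 7.26) in the others (log2 1.18, SE 0.09). For Pycr1 and Ddit3 all 5 libraries 3 were above all 10 others.

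Aldh1l2, a folate enzyme of mitochondria, was 37.9, 70.3, 53.4, 71.4 and 0.29 CPM in libraries 3, against 0.03 to 18.7 CPM (median 14.4) in libraries 1 and 2 (log2 1.93, SE 0.12). The WT empty libraries had almost no Aldh1l2, so its rise rests on the heterozygous groups. Atf3, a stress-induced repressor, was 9.18, 16.7, 27.2, 22.6 and 12.1 CPM in libraries 3 and 2.77 to 5.13 CPM (median 4.23) in the others (log2 2.06, SE 0.19). Asns, asparagine synthetase, rose by 0.65 and Trib3, a pseudokinase that restrains ATF4, by 1.58, but the serine synthesis gene Phgdh (-0.17), Shmt2 (-0.08) and Mthfd2 (0.04) were not called. Of 14 cytosolic aminoacyl-tRNA synthetases 8 rose and 2 fell (median 0.12), led by Sars at 0.46.

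The unfolded protein response had 6 of 21 genes higher and 4 lower (median 0.03), beside 19.7% and 24.5% of all genes tested. Its chaperone Hspa5 was at 1220 CPM in libraries 3 and 1150 CPM in libraries 1 and 2 (log2 0.08, not called). Heat shock genes fell: 12 of 16 were lower, 1 higher (Bag3, 0.19) and 11 ordered downward, with a median of -0.36. Hspa8, the constitutive cytosolic HSP70, was 3100, 2730, 2560, 3220 and 3130 CPM in libraries 3, against 4150 to 5220 CPM (median 4970) in libraries 1 and 2 (log2 -0.72, SE 0.06). Hsph1, its exchange factor, was 98.5, 79.0, 71.1, 118 and 79.8 CPM in libraries 3 and 142 to 182 CPM (median 161) in the others (log2 -0.87, SE 0.08). Neither overlapped, and the co-chaperones Dnaja1 and Chordc1 fell by 0.50 and 0.41 in the same manner.

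NRF2 targets split, 4 of 15 higher and 5 lower, beside 19.7% and 24.5% of all genes tested. Hmox1, heme oxygenase, was 86.8, 127, 125, 87.0 and 69.9 CPM in libraries 3 and 29.0 to 45.1 CPM (median 36.0) in the others (log2 1.41, SE 0.09), and Srxn1, sulfiredoxin, rose by 0.80, while glutathione reductase (Gsr) fell by 0.46. Targets of p53 rose in 14 of 19 tests, with 2 lower (Aen and Perp) and 12 ordered upward (median 0.47). Cdkn1a, the cell cycle inhibitor p21, was 90.3, 103, 119, 93.1 and 99.6 CPM in libraries 3, against 42.6 to 63.2 CPM (median 56.9) in libraries 1 and 2 (log2 0.90, SE 0.07). Mdm2, the ubiquitin ligase for p53, was 171, 193, 204, 178 and 223 CPM in libraries 3 and 102 to 129 CPM (median 117) in the others (log2 0.73, SE 0.06). Both were separate in all 5 groups, and WT empty had differences at least as large as the heterozygous groups (1.20 for Cdkn1a and 0.95 for Mdm2, against 0.64 to 1.14 and 0.49 to 0.92 in the heterozygous groups). Bax and Fas, p53 targets of cell death, were not called.

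Of 25 lysosome and autophagy genes 16 rose and 3 fell (median 0.19). Sqstm1, the cargo receptor p62, was 316, 464, 416, 341 and 222 CPM in libraries 3 and 134 to 190 CPM (median 164) in the others (log2 1.06, SE 0.09). The metallothioneins Mt1 and Mt2, which bind zinc, rose by 0.66 and 1.05, and the ferritin chain Fth1 by 0.39. Of 6 iron handling genes tested 3 rose and 2 fell, Slc11a2 (-0.24) and Steap3 (-0.44).

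Immediate early genes, transcribed within minutes of a stimulus, rose in 12 of 20 tests with 1 fall and 11 ordered upward (median 0.79). Ier3, an early response gene linked to survival, was 123 to 243 CPM (median 157) in libraries 3, against 30.5 to 71.8 CPM (median 45.1) in libraries 1 and 2 (log2 1.77, SE 0.14). Jun, a part of AP-1, was 52.5, 53.8, 64.6, 41.5 and 51.1 CPM in libraries 3 and 21.2 to 30.7 CPM (median 26.9) in the others (log2 1.0, SE 0.07). In both genes the 2 sets of libraries were apart. Klf6 and the phosphatase Dusp1 rose by 1.09 and 0.93. Myc, which drives growth, was the 1 member that fell, at 224 CPM in libraries 3 and 278 CPM in libraries 1 and 2 (log2 -0.32). Egr2, Ier2, Junb and Nr4a1 were not called.

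Of 10 feedback genes of ERK signalling 8 rose (Dusp5 by 0.73 and Etv5 by 0.72) and Dusp6 fell by 0.24. Of 13 cytokine and STAT targets 9 rose and 2 fell, the cyclins Ccnd1 and Ccnd3. Socs3, an inhibitor of cytokine receptors, was 12.7, 16.1, 23.0, 19.9 and 11.2 CPM in libraries 3 and 4.67 to 8.48 CPM (median 6.66) in the others (log2 1.31, SE 0.12), and Cish rose by 1.17. NF-kB targets rose in 8 of 18 tests with 1 fall (median 0.22), chiefly chemokines: Ccl3 was 260, 237, 202, 148 and 351 CPM in libraries 3, against 58.7 to 97 CPM (median 63.9) in libraries 1 and 2 (log2 1.79, SE 0.08). The feedback inhibitor Nfkbia was at 51.8 and 48.7 CPM and was not called. Interferon-stimulated genes moved both ways, 4 higher and 4 lower of 13, beside 19.7% and 24.5% of all genes tested.

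Genes linked to FOXO and quiescence rose in 10 of 14 tests with no fall (median 0.44). Txnip, an inhibitor of glucose uptake, was 197, 290, 330, 252 and 208 CPM in libraries 3 and 98.9 to 126 CPM (median 116) in the others (log2 1.12, SE 0.08). Btg1, an antiproliferative gene, was 31.5, 36.4, 38.8, 33.1 and 24.7 CPM in libraries 3 and 13.8 to 19.9 CPM (median 18.4) in the others (log2 0.88, SE 0.05). Neither overlapped, and Cdkn1b, the inhibitor p27, rose by 0.42.

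Growth genes were lower. Of 32 ribosome biogenesis genes 26 fell, none rose and 15 were ordered downward (median -0.29). Ubtf, which activates transcription of ribosomal RNA, was 180, 147, 131, 178 and 186 CPM in libraries 3, against 231 to 260 CPM (median 243) in libraries 1 and 2 (log2 -0.57, SE 0.07). Utp20, of the small-subunit processome, was 167, 132, 122, 191 and 170 CPM in libraries 3 and 196 to 237 CPM (median 217) in the others (log2 -0.48, SE 0.07). The lowest values in both genes were those of Het DDX41 and Het G173R. By group the median of the list was -0.10 in Het empty, -0.48 in Het DDX41, -0.56 in Het G173R, -0.19 in Het R525H and -0.06 in WT empty. Ribosomal protein genes did not share the fall: of 80 tested 8 rose and 1 fell (median 0.02).

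Nucleotide and polyamine synthesis fell in 13 of 15 tests, with 8 ordered downward (median -0.27). Its group medians were -0.09 in Het empty, -0.46 in Het DDX41, -0.51 in Het G173R, -0.19 in Het R525H and -0.09 in WT empty. Atic, of purine synthesis, was 230, 184, 176, 253 and 235 CPM in libraries 3 and 266 to 303 CPM (median 291) in the others (log2 -0.43, SE 0.07), and Dhodh, of pyrimidine synthesis, fell by 0.55. Odc1, ornithine decarboxylase, was the 1 member that rose (log2 0.12). Of 35 S phase genes 25 fell and none rose (median -0.20), but only 10 were ordered. Their group medians were -0.07 in Het empty, -0.36 in Het DDX41, -0.29 in Het G173R, -0.31 in Het R525H and -0.03 in WT empty. Mcm6, a subunit of the replicative helicase and an ordered member, was 534, 441, 492, 504 and 572 CPM in libraries 3 and 581 to 670 CPM (median 655) in the others (log2 -0.35, SE 0.05). Of 25 genes of G2 and mitosis 13 fell and none rose (median -0.19). Ccna2, cyclin A2, was 253, 229, 226, 233 and 246 CPM in libraries 3 and 278 to 305 CPM (median 296) in the others (log2 -0.31, SE 0.04), and Mki67, the proliferation marker Ki-67, was not called (log2 0.02).

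Replication-dependent histone genes were the list on which the groups differed most. Of 59 tested 16 fell and none rose (median -0.52), yet only 2 were ordered; 24.5% of all genes fell. The median was 0.55 in Het empty, -0.58 in Het DDX41, -1.15 in Het G173R, -0.90 in Het R525H and -0.20 in WT empty. Histone genes are near-identical copies, so the split of reads among them is uncertain; the sign in Het empty was opposite to the other 4 groups.

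**Figure D4:**
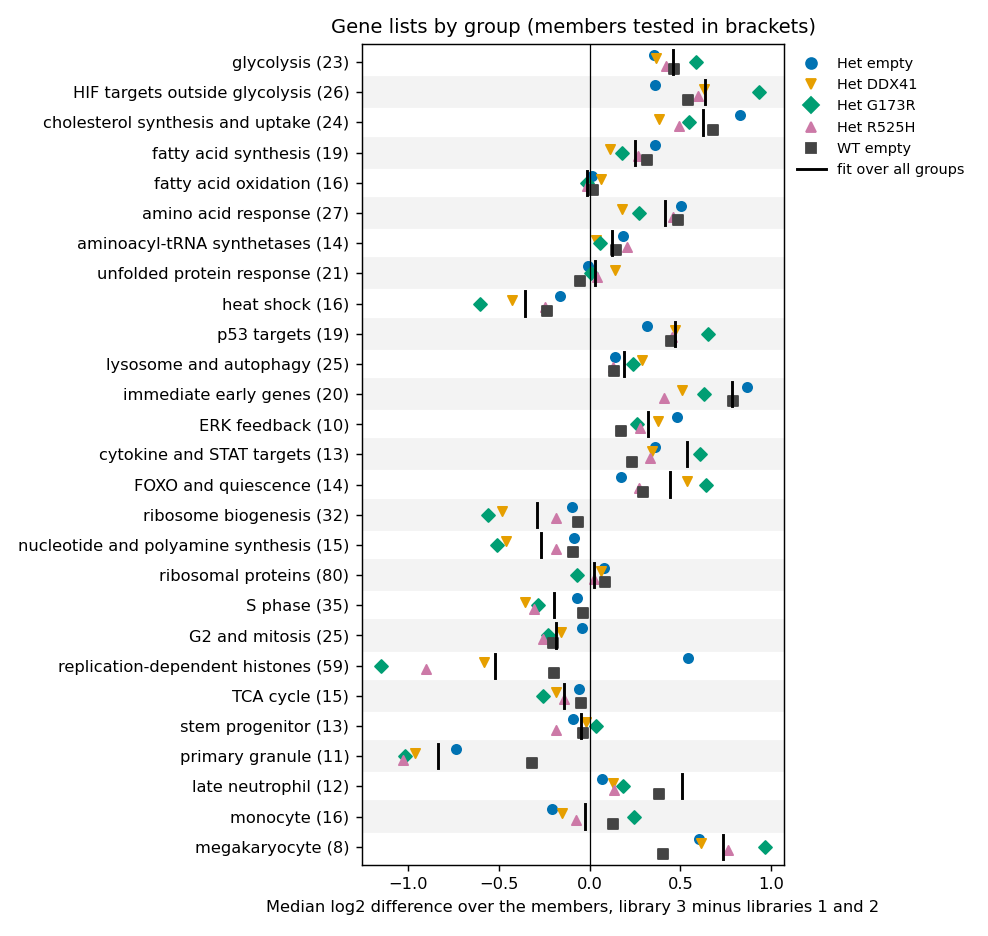
Median log2 difference of library 3 minus libraries 1 and 2 over the members of 27 gene lists, by group (symbols) and in the fit over all groups (bars), with the number of members tested in brackets. Hypoxia, cholesterol and immediate early genes lie to the right of 0 in all 5 groups and primary granule and heat shock genes to the left, while histone genes lie at 0.55 in Het empty and at -1.15 in Het G173R.

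In the differentiation markers, primary granule genes of neutrophil precursors fell most uniformly: 10 of 11 were lower and the same number ordered downward (median -0.84). Mpo, myeloperoxidase, was 906, 604, 830, 742 and 705 CPM in libraries 3, against 1030 to 2010 CPM (median 1800) in libraries 1 and 2 (log2 -1.12, SE 0.08). Ms4a3, a surface protein of granulocyte and monocyte progenitors, was 97.6, 54.2, 58.5, 114 and 38.3 CPM in libraries 3 and 79.2 to 259 CPM (median 158) in the others (log2 -1.19, SE 0.07). Elane, neutrophil elastase, was 5.92, 3.07, 3.69, 3.72 and 1.19 CPM in libraries 3 and 2.41 to 15.4 CPM (median 12.8) in the others (log2 -1.62, SE 0.12). The ranges of Mpo were apart, while those of Ms4a3 and Elane overlapped between groups, since WT empty was low in all 3 of its libraries. Cebpe, the factor that drives granule maturation, fell by 1.29, Cebpa by 0.48 and Gfi1 by 0.27; Srgn, a granule proteoglycan, was not called. The fall was smallest in WT empty (median -0.32), against -0.73 in Het empty, -0.97 in Het DDX41, -1.02 in Het G173R and -1.03 in Het R525H.

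Genes of later neutrophils did not move as a set: of 17 in the files 12 were tested, 3 rose and 2 fell. Over all genes tested 19.7% rose and 24.5% fell. Lcn2, lipocalin 2, rose by 0.55, Mmp8, a collagenase, fell by 1.07, and the granule genes Ltf and Ngp rose at very low levels. Ltf averaged 0.71 CPM in libraries 3 and 0.19 CPM in libraries 1 and 2, and Ngp 1.15 CPM in libraries 3 and 0.39 CPM in libraries 1 and 2. Monocyte genes split, 6 of 16 higher and 5 lower, with Ccr2, the chemokine receptor, falling by 0.52 and Adgre1, which encodes F4/80, rising by 0.52. Ly6c2 was 2.02, 0.82, 0.62, 0.77 and 0 CPM in libraries 3 and 0.25 to 5.34 CPM (median 4.39) in the others (log2 -2.19, SE 0.26), and is one of several near-identical Ly6 genes.

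Of 13 progenitor markers tested 2 rose, among them Hlf (0.41), and 6 fell, among them Myb (-0.33) and Sox4 (-0.49), both ordered. Kit, the receptor for stem cell factor, was 489 CPM in libraries 3 and 492 CPM in libraries 1 and 2, Cd34 1470 and 1610 CPM (log2 -0.13) and Flt3 249 and 267 CPM (log2 -0.12). Kit, Cd34 and Flt3, markers of the labelled cell type, were all present. Hoxa10 and Mecom of the same list had no count in any library, Hoxa9 at most 2 and Cd48 at most 4. Hoxb8 itself, read from the Hoxb8 gene, was 32.5, 26, 33.2, 20.1 and 25.8 CPM in libraries 3 and 22.8 to 38.5 CPM (median 28.1) in the others (log2 -0.05, SE 0.09, not called). Ddx41 was 28.7, 29.5, 27.8, 29.1 and 55.6 CPM in libraries 3 and 29.4 to 63.4 CPM (median 34.9) in the others and fell by 0.22 on the log2 scale (SE 0.05); the call was lost without libraries 2 and without the group term.

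Markers of other cell types were examined beside these results. Megakaryocyte genes rose in 6 of 8 tests, all 6 ordered (median 0.74), with Pf4, platelet factor 4, at 4.81, 5.33, 6.56, 3.95 and 9.73 CPM in libraries 3 and 1.0 to 5.21 CPM (median 1.36) in the others (log2 1.75, SE 0.17). The summed level of the 10 megakaryocyte markers was 126 to 151 CPM in libraries 3 and 102 to 131 CPM in libraries 1 and 2. Of 12 lymphoid genes 6 rose and 1 fell (Rag2, -0.67), with a sum of 164 to 249 CPM in libraries 3 and 155 to 231 CPM in the others. Erythroid genes had 1 rise in 7 tests (19.7% of all genes rose), the globin Hbb-bt, under 2 CPM in every library. The 7 stromal markers summed to 73.4 to 109 CPM in libraries 3 and 68.9 to 106 CPM in the others, nearly all of it Pdgfrb, with Col1a1, Col3a1, Dcn and Lum at 0. The hepatocyte sum was 9.98 to 40.6 CPM in libraries 3 and 4.97 to 33.4 CPM in the others, mostly transferrin (Trf), with Alb, Ttr and Serpina1a at 0. Of 3 hepatocyte genes tested 2 rose and were ordered, Trf by 0.69 and the fetal liver protein Afp by 2.02 (mean 0.98 CPM in libraries 3 and 0.24 CPM in the others). The endothelial sum stayed under 1 CPM with Cdh5, Lyve1 and Emcn at 0, and the 1 gene tested, Stab2, rose by 1.66 and was ordered (mean 0.44 CPM in libraries 3 and 0.17 CPM in the others). The part of the megakaryocyte, lymphoid, hepatocyte and endothelial genes in the other results was not tested.

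Gene by gene, among those that averaged at least 5 CPM on whichever side was higher, so that a rising gene could pass through libraries 3 alone, the largest rises began with Apold1, a vascular early response gene, at 7.07, 12.9, 12.8, 13.6 and 5.94 CPM in libraries 3, against 0.70 to 1.31 CPM (median 0.94) in libraries 1 and 2 (log2 3.36, SE 0.19). Gstt1, a glutathione transferase, rose by 2.66 and Slc27a1, a fatty acid carrier, by 2.64. Clu, the secreted chaperone clusterin, was 22.3, 25.6, 21.7, 15.2 and 38.6 CPM in libraries 3 and 2.60 to 14.3 CPM (median 4.71) in the others (log2 2.16, SE 0.11). Lgals3, the lectin galectin 3, was 21.9, 42.6, 33.7, 28.6 and 7.68 CPM in libraries 3 and 2.16 to 9.05 CPM (median 6.01) in the others (log2 2.16, SE 0.15). Apold1 and Clu were separate in all groups, and Lgals3 overlapped only through WT empty. Rnf150 rose by 2.13, Hid1 by 1.94 and Igsf5 by 1.92. Cd74, the invariant chain of MHC class II and a member of the dendritic cell list, rose by 1.84; of the 6 dendritic genes tested 3 rose and 1 fell. Of 4 structured and nuclear noncoding RNAs tested, Malat1 and Neat1 rose by 1.24 and 1.13, with Malat1 at 2920, 3960, 4160, 3700 and 3390 CPM in libraries 3 and 1130 to 2860 CPM (median 1420) in the others. The part of these RNAs in the other results was not tested.

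The largest falls began with Exosc6, an exosome subunit, which had no count in libraries 3 of the 4 heterozygous groups, against 110 to 260 in each of their libraries 1 and 2 (at least 185-fold lower, with a floor of 3 counts over the 4 libraries). In WT empty its count was 97 in library 3, against 241 and 321 in libraries 1 and 2. Its expected counts are not whole numbers, so RSEM divided reads between this gene and others, and the value is uncertain. Cldn15, a claudin, was 1.92, 1.03, 1.16, 2.04 and 1.32 CPM in libraries 3 and 2.64 to 12.2 CPM (median 7.32) in the others (log2 -2.22, SE 0.18). Banp, a chromatin factor that binds unmethylated promoters, was 12.5, 13, 14.4, 14.1 and 15.2 CPM in libraries 3 and 31.2 to 35.6 CPM (median 33.5) in the others (log2 -1.27, SE 0.05). It was one of the most even differences, with -1.43 to -1.08 across the groups. Chdh, choline dehydrogenase, fell by 1.57, Igsf6 by 1.44, Mtus1 by 1.37, the endothelin receptor Ednra by 1.33, Far2, which makes fatty alcohols, by 1.32, the haptoglobin gene Hp by 1.28 and Hsd11b1, which reactivates glucocorticoids, by 1.62.

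Whether the 5 groups agreed was tested through the interaction of group and number, which played no part in the choice of the number. By edgeR's quasi-likelihood test 13 of 14548 genes differed between groups (0.0894%), none of them a member of the 48 lists, and 1760 (12.1%) had an unadjusted p under 0.05. The lists hold only a small part of the genes tested, so the absence of their members does not show that the groups agreed on them. At the unadjusted threshold the members were unevenly spread: 29 of 32 ribosome biogenesis, 15 of 24 cholesterol, 11 of 26 hypoxia, 3 of 23 glycolysis and 3 of 11 primary granule genes. In other lists it was 19 of 35 S phase, 10 of 15 nucleotide and polyamine synthesis, 10 of 16 heat shock and 9 of 19 p53 genes. Among ribosomal protein genes it was 5 of 80, and in the tricarboxylic acid cycle 2 of 15. With 3 libraries a group this test rests on few degrees of freedom, and its count moved with single libraries. It was 0 without WT empty 1, WT empty 3, Het R525H 1 or Het R525H 2, 1 without Het DDX41 1 or 2, 6 without Het G173R 1, 7 without Het G173R 2, 58 without WT empty 2 and 65 without library 1 of both empty-vector groups.

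A single contrast set the mean difference of the 4 heterozygous groups against that of WT empty, and 75 genes passed (0.516%), 42 with a positive and 33 with a negative value. In 44 of them both lines moved the same way and the heterozygous groups by more, in 3 WT empty by more, and in 28 the directions were opposite. The WT empty side rests on 1 library 3, and the spread in this test and in the interaction comes from libraries 1 and 2 alone, so each library 3 is assumed to vary as they do. Without WT empty 3 the contrast cannot be formed. Rab27b, a GTPase of granule release, was 40.6, 48.4, 41.8 and 36.6 CPM in libraries 3 of the heterozygous groups and 36.4 CPM in WT empty 3. Its difference from libraries 1 and 2 was 1.72 to 2.02 in the heterozygous groups and 0.75 in WT empty (contrast 1.14, SE 0.10, edgeR adjusted p = 0.00234). Flt1, a VEGF receptor, differed by 1.02 to 1.16 in the heterozygous groups and by -0.11 in WT empty (contrast 1.22, SE 0.11, edgeR adjusted p = 0.00234), with libraries 3 at 66.2 to 71.7 CPM in the heterozygous groups and 56.8 CPM in WT empty. Ttc39b (contrast 0.94) and Fam169a (contrast 0.93) showed the same order, and so in the negative direction did Gda, guanine deaminase, at -1.51 to -1.03 in the heterozygous groups and -0.45 in WT empty. Lrba fell in the heterozygous groups (-1.10 to -0.49) and not in WT empty (0.09). The lines already differed in libraries 1 and 2. There Flt1 was 29.1 to 37.9 CPM in the heterozygous groups, against 60.2 and 62.2 CPM in WT empty. In the same libraries Rab27b averaged 11.1 CPM, against 21.5 and 21.3, Ttc39b 57.8, against 111 and 107, and Fam169a 18.6, against 76.3 and 80.5. Gda (59.3, against 74.4 and 77.9) and Lrba (45.8, against 104 and 102) were also lower in the heterozygous groups.

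Among the list members, 10 passed this contrast, and these were named after their values were seen. Of primary granule genes 2 of 11 passed, and of mast cell and basophil genes 3 of 9. Of NRF2 targets it was 2 of 15 and of p53 targets 1 of 19. Of cytokine and STAT targets 1 of 13 passed, and of unfolded protein response genes 1 of 21. The other lists had none, and over all genes tested the share was 0.516%. The granule genes Mpo (contrast -0.63, edgeR adjusted p = 0.0153) and Ctsg, cathepsin G (contrast -0.75, edgeR adjusted p = 0.0329), fell more in the heterozygous groups. Mpo averaged 770 CPM in their libraries 3 and 1830 CPM in their libraries 1 and 2, and was 705 CPM in WT empty 3, against 1030 and 1140 CPM in WT empty 1 and 2. The mast cell genes Il1rl1, Cpa3 and Ms4a2 had higher values of the contrast (1.52, 1.05 and 1.04), with library 3 below both others in WT empty. The remaining members were Srxn1 (0.75), Pim2 (0.80), Sel1l (0.40), Perp (-0.71) and Gsr (-0.46). The number passing ran from 17 without Het DDX41 2 and 19 without Het DDX41 1 to 114 without Het empty 3, with 43 without Het DDX41 3, 29 without Het G173R 2, 35 without Het R525H 1 and 37 without Het R525H 2. Because there is 1 line of each genotype, genotype and line cannot be told apart.

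**Figure D5:**
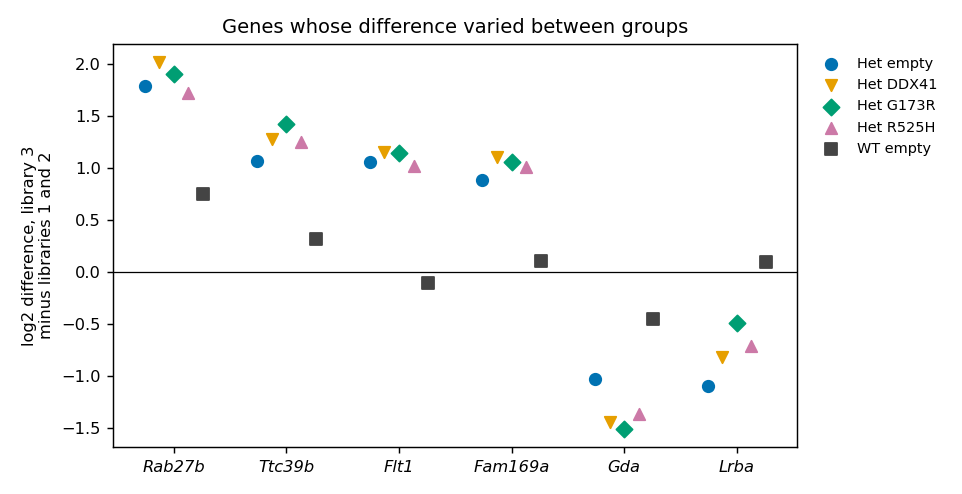
Log2 difference of library 3 minus libraries 1 and 2 in each group for 6 genes whose difference varied between groups. WT empty (squares) lies nearest 0 for all 6, while the heterozygous groups lie at 0.88 to 2.02 for Rab27b, Ttc39b, Flt1 and Fam169a and at -1.51 to -0.49 for Gda and Lrba.

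Libraries 2 were compared with libraries 1 in a model with the number at 3 levels. No gene passed in edgeR or with limma voom, 1579 genes (10.9%) had an unadjusted p under 0.05 in edgeR, and DESeq2 called 24.

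Among 9442 genes of at least 5 CPM, 103 to 153 differed at least 2-fold between library 3 and another library of Het empty, 189 to 192 in Het DDX41, 228 to 387 in Het G173R, 163 to 221 in Het R525H and 78 to 85 in WT empty. Between libraries 2 and 1 the number was 30, 1, 47, 41 and 33 in the same groups.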

How the data were processed

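The 15 libraries came from total RNA depleted of ribosomal RNA, with strand kept, per the labels' protocols. The authors deposited 1 RSEM table per sample with 55359 genes, per the submitters' processing notes and the file headers; for the RSEM version, aligner, genome build and annotation release the entry is "not given in the sources used here". The expected count of each gene, an estimate that can split reads between genes, was deposited without normalization, and was rounded to whole numbers here. The TPM column, which the authors scaled by gene length and library, and their FPKM column gave no result. Gene and effective lengths, other values deposited in the same tables, gave the mean fragment length (the median difference over genes above 2000 bases).

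Genes passed filterByExpr with the 5 groups (14548 genes, 99.95 to 99.97% of counts), with TMM scaling (0.9687 to 1.057). edgeR 4.0.16 in R 4.3.3 fitted group plus number 3 by quasi-likelihood (common dispersion 0.0117), group by number for the interaction and the line contrast, and the number at 3 levels for libraries 2 against 1; p-values were adjusted by Benjamini-Hochberg over all genes and called under 0.05. The SE is the log2 difference over the square root of F. CPM uses TMM-scaled totals, and differences by group are on log2(CPM + 0.5). Intervals are not given, and the floor of 3 counts covers counting error only. Alternatives used DESeq2 1.42.0, limma 3.58.1, other filters, thinned counts, covariates and left-out libraries. The fit was tested on simulated data.

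The members, the 48 lists and the number 3 were chosen with earlier results of these data known. Genes were named by rule: the 14 largest rises and falls of at least 5 CPM on the higher side that were called and ordered, up to 4 members a list by F, up to 5 genes per tested contrast, Ddx41 and Hoxb8. Other list members are named as exceptions or examples after their values were seen. A symbol held by several genes stands for the one with the highest mean. Chromosomes came from GENCODE M21 (14503 genes, 99.7%) and promoters from RefSeq, GRCm38.p6.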

Additional observations from a re-analysis of the deposited data

Results flagged for a closer look

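In 57 sets of 5 group values screened for 1 far value, the median difference of the small nucleolar RNA host genes in Het G173R stood apart from the other groups, at -0.235 (gap over range above 0.71). Chance gives such a value in about 1 of 20 sets.

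Differences between groups in the size of the change in libraries 3 passed edgeR's test for several named genes. The interaction had an adjusted p of 0.0308 for Rab27b, for Ttc39b, for Flt1, for Lrba and for Gda. The value of the 4 heterozygous groups minus WT empty was 1.14 for Rab27b, 0.941 for Ttc39b, 1.22 for Flt1 and 0.933 for Fam169a on the log2 scale. It was -8.67 for Exosc6, which had no count in libraries 3 of the heterozygous groups; this fitted value depends on the prior count and is no bound. Each of these 5 interaction calls was lost without WT empty 1 and without WT empty 3.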

How the results depend on the processing

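No paired analysis was possible because the replicate number is itself what was compared. No called gene had the opposite sign under any alternative run. Leaving out replicates or single libraries gave 2098 to 3400 genes higher and 2106 to 3613 lower in libraries 3, 0 to 58 genes for the interaction, 17 to 114 for the heterozygous groups against WT empty and 0 to 2 for libraries 2 against 1. It gave -5.55e6 to -2.83e6 for the difference in library totals and -0.94 to 5.04 bases for fragment length, which turned sign at -0.94 without libraries 1; the cause was not tested. Without a filter on low counts, 1189 genes passed the interaction, 390 the contrast of lines and 147 the comparison of libraries 2 with 1, where DESeq2 gave 24. Without library 1 of both empty-vector groups, an alternative chosen after seeing the data, the interaction had 65 genes, and 96.4% of the genes called higher and 97.1% of those called lower were called again. Of the log2 differences of named genes under the alternatives, 6301 kept direction and call and 103 kept direction only, most often Xcr1, Itgax, mt-Cytb, Snhg3 and Rpl22l1, which have low levels or small differences. Depth limits genes under about 1 CPM, where a library holds few counts; the fit without one library 3 leaves that group without a difference of its own, so those counts rest on 4 groups.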

Other observations

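Genes of the circadian clock, which were set apart from the culture programs, moved in 8 of 13 tests, beside 44.2% of all genes tested. Ciart, a repressor of the clock, was 15.2, 14.9, 22.5, 21.3 and 16.2 CPM in libraries 3 of Het empty, Het DDX41, Het G173R, Het R525H and WT empty, against 3.85 to 10.8 CPM (median 8.20) in libraries 1 and 2, and rose by 1.23 on the log2 scale (SE 0.14). Tef, an output factor, was 51.1, 52.4, 55.6, 58.6 and 47.6 CPM in libraries 3 and 28.8 to 39.9 CPM (median 33.9) in the others (log2 0.65, SE 0.05). Per1 rose by 0.48, and Arntl, which encodes BMAL1, and Clock fell by 0.20 and 0.30. For Ciart and Tef the 2 sets of libraries did not overlap. Per2, Nr1d1 and Dbp were not called.

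Glucocorticoid targets split, with Tsc22d3, Klf9 and Sgk1 higher (0.28, 0.26 and 0.50) and Fkbp5 and Zbtb16 lower (-0.17 and -0.28). Among the mitochondrially encoded mRNAs 4 of 13 fell and none rose, beside 24.5% of all genes tested that fell. The only ordered member, mt-Co1, was 4530, 5500, 5100, 4490 and 4990 CPM in libraries 3 and 5380 to 6600 CPM (median 6110) in the others (log2 -0.31, SE 0.05). Medians of this list were -0.29 in Het empty, 0.02 in Het DDX41, -0.21 in Het G173R, -0.03 in Het R525H and -0.51 in WT empty. Of 12 host genes of small nucleolar RNAs 4 fell and 1 rose, beside 24.5% and 19.7% of all genes tested, and Dancr fell by 0.78. The mast cell and basophil genes split, 3 higher and 3 lower of 9, with Mcpt8, a basophil protease, lower by 0.73 and Mitf higher by 0.67. Genes were also divided by length: the median difference was -0.02 in the shortest genes, -0.01 in the middle and 0.01 in the longest (median lengths 1172, 2323 and 4132 bases).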
